A study of Mus musculus with 6 samples.

Results

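The heptad is a set of 7 transcription factor genes, Tal1, Lyl1, Lmo2, Gata2, Runx1, Erg and Fli1, whose products bind together at enhancers of blood stem and progenitor cells. Their loci were taken as each gene body with 50 kb on either side in the mm10 (GRCm38) genome with the GENCODE M21 annotation, and every ATAC-seq peak overlapping such a window was followed. After merging the peaks of the 6 lists, 198 of 112852 regions (0.175%) fell in the 7 windows. Runx1 held 49 of them, Erg 43, Fli1 28, Lyl1 24, Lmo2 19, Gata2 18 and Tal1 17. A peak was assigned by position, so regions over or inside a neighbouring gene were counted with the locus.

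Accessible chromatin was mapped by ATAC-seq, in which the Tn5 transposase inserts sequencing adapters into open DNA. The cells were cultured murine L-GMP cells, leukemic granulocyte-macrophage progenitors of an MLL-AF9 acute myeloid leukemia that serve as its leukemia stem cells (LSCs), labelled as wild type in genotype and grown in medium with mouse IL3. The 3 Control samples were set against 3 samples given MMF (mycophenolate mofetil), an inhibitor of inosine monophosphate dehydrogenase and so of guanine nucleotide synthesis. Both groups carry the MLL-AF9 fusion, which the study delivered by retrovirus, and the labels do not say whether samples of a group came from separate cultures or mice, so every p below measures the spread between these samples, which may be technical. The labels give a treatment of 24 h, while the methods and a figure legend of the study differ in dose and time. In bulk samples, a change in the share of cells of one kind and a change per cell cannot be told apart.

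In normal blood, Tal1 and Lyl1 are related basic helix-loop-helix factors that pair with E proteins on E-box sites. Lmo2 is a LIM protein that bridges them to GATA factors and also binds Ldb1, and Gata2 is the GATA factor of stem cells and early progenitors. Runx1 binds DNA with its partner Cbfb and is transcribed from a distal and a proximal promoter. Erg and Fli1 are ETS factors. The heptad genes are themselves controlled by enhancers that the heptad proteins bind.

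A set of 6 regions carried the main contrasts of these loci. Each is named by its gene and by the distance of its summit, in kb, from the most upstream start of that gene in the direction of transcription. The reference sequence (GRCm38, plus strand, 200 bases around the summit) is printed with matches to the motifs searched in capitals. The motifs, on both strands, were AGATAA for GATA factors, AGGAAG for ETS factors, TGTGGT for RUNX factors, CAGNTG for the E-box, TTGCNNAA for C/EBP factors and TGANTCA for AP-1. Matches of different motifs could overlap. The first 3 regions are those called higher with MMF at the smallest p, the next 2 those called lower at the smallest p, and the last is the most accessible region of the Gata2 locus, where the groups were close.
Erg +121.8 kb, chr16:95464661-95464860: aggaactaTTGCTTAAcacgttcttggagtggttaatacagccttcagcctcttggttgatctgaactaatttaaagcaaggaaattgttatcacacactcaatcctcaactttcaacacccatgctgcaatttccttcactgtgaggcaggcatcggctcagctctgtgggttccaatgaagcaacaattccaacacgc
Erg +201.0 kb, chr16:95385466-95385665: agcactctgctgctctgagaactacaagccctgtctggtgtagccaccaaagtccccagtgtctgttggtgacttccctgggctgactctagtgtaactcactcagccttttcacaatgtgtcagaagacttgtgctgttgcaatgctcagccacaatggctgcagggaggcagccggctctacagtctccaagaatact
Runx1 +252.8 kb, chr16:92573246-92573445: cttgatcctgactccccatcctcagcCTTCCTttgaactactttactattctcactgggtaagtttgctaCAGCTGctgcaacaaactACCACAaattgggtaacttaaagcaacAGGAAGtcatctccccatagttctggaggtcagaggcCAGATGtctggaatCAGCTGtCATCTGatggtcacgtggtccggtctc
Lyl1 start, chr8:84701337-84701536: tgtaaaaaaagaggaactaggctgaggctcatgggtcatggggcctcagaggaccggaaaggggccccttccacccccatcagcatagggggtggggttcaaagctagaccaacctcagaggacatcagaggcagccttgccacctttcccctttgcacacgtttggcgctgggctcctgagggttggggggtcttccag
Gata2 +35.5 kb, chr6:88229328-88229527: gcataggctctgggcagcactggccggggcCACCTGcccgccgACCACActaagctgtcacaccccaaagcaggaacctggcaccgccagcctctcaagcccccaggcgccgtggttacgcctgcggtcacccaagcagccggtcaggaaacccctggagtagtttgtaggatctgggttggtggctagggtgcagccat
Gata2 −27.6 kb, chr6:88166142-88166341: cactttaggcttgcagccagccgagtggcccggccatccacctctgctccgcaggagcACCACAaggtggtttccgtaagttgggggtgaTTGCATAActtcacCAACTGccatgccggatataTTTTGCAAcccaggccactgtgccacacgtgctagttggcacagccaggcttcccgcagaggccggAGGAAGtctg

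The Runx1 +252.8 kb window held 7 matches, of which 4 were E-boxes, 2 ETS and 1 RUNX. The Erg +121.8 kb window held a single C/EBP match, and the Erg +201.0 kb and Lyl1 start windows held none. The Gata2 −27.6 kb window held 5 matches, including 2 C/EBP. Over all 198 regions the motifs were about as frequent as over all 112852 merged peak regions. ETS matches lay in 43.9% of the heptad regions and 40.5% of all regions, E-boxes in 47.0% and 42.6%, RUNX in 26.3% and 25.8%, AP-1 in 16.7% and 16.1%, C/EBP in 14.6% and 14.9%, and GATA in 7.07% and 6.93%. A match is a run of letters and does not show that a factor is bound there.

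Accessibility is given as height, the number of reads over the summit of a peak divided by the number expected from the genome-wide background of that sample, so that a height of 20 means 20 times background. The reads were solved from the deposited fold enrichment and p of each peak. The Control lists held 58496 to 63911 peaks and the MMF lists 80893 to 86556, the background was 0.620 to 0.729 reads in Control and 0.676 to 0.909 in MMF, and the median summit of a list held 14 to 19 reads. Among the 41182 regions with a peak in all 6 lists, called shared here, the median log2 difference of height between MMF and Control was 0.17, so single differences are to be read against that value. It also varied with height, from 0.35 for regions at heights of 20 to 30 to −0.09 for regions above 70. Promoter peaks were looked for at markers of the labelled cells. Kit, Ctsg, Cebpa and Csf2rb had one in every list, Cd34 in 5 lists, and Mpo and Prtn3 in none. Elane and Fcgr3 each had one in 1 Control and 3 MMF lists. No list had a peak at any of the 5 T and B cell genes. Sums of promoter height were taken over the markers with a peak in every list, since a missing peak has no value. They were 274 to 292 in Control and 284 to 329 in MMF for 4 of 9 progenitor markers (Kit, Ctsg, Cebpa and Csf2rb), 106 to 132 and 104 to 114 for 1 of 5 erythroid genes (Klf1, with Gata1 and Hba-a1 in no list), and 30.2 to 36.2 and 26.6 to 38.5 for 2 megakaryocyte genes (Pf4 and Itga2b). The 4 progenitor markers did not move together. Ctsg was higher and Cebpa lower in every MMF sample than in any Control sample, and Kit and Csf2rb overlapped. For 2 of 4 mature myeloid genes (Itgam and Cd14) the sum was 47.7 to 61.7 in Control and 77.9 to 91.6 in MMF, with Itgam higher in every MMF sample and Cd14 overlapping. Csf1r had a promoter peak in 2 Control and 3 MMF lists, and Ly6g in 2 Control and 2 MMF lists. The part of these differences in the results at the heptad loci was not tested.

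At the heptad loci, the balance of higher and lower calls depended on the scaling of the samples. Of the 198 regions, 79 were shared, and limma on the log2 height called 23 of these higher and 4 lower with MMF (Benjamini-Hochberg adjusted p below 0.05 over all shared regions). That is 29.1% of the shared heptad regions called higher, beside 21.8% of all shared regions, and 5.06% called lower, beside 3.09%. Runx1 had 8 of the higher calls among 22 shared regions, Erg 7 among 13, Fli1 4 among 12, Lmo2 2 among 8 and Lyl1 2 among 12. The lower calls were 3 at Lyl1 and 1 among the 9 shared regions of Gata2. Neither direction was called among the 3 shared regions of Tal1.

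The count of higher calls depended on how samples were scaled to each other. When each sample was centred on its median height over the shared regions, a shift of 0.35 on the log2 scale, 9 heptad regions were called higher and 17 lower, beside 8.76% and 25.3% of all shared regions. When the median difference was set to 0, which was chosen after seeing the data, 13 were called higher and 8 lower, beside 14.0% and 10.3%. The authors' fold enrichment on the log2 scale gave 9 higher and 1 lower, beside 13.4% and 0.323%, and the rank by fold enrichment within each list gave 2 higher and 1 lower, beside 1.44% and 0.425%. Between the 3 scalings of the height, the difference of every region shifts by the same amount, though centring also changes the spread within groups. The 9 higher calls of the centred fit and the 4 lower calls of the unshifted fit were made under all of them (background 8.76% and 3.09%). Of these 13, log2 fold enrichment called 6 of the 9 higher and 1 of the 4 lower, and the rank called 2 of the 9 and 0 of the 4. These 13 regions carry the account below. By sign alone, 30 of the 79 shared regions were higher and 18 lower under all 5 of these measures. This count was not made over all shared regions, of which 64.6% rose by the unshifted height.

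**Figure D1:**
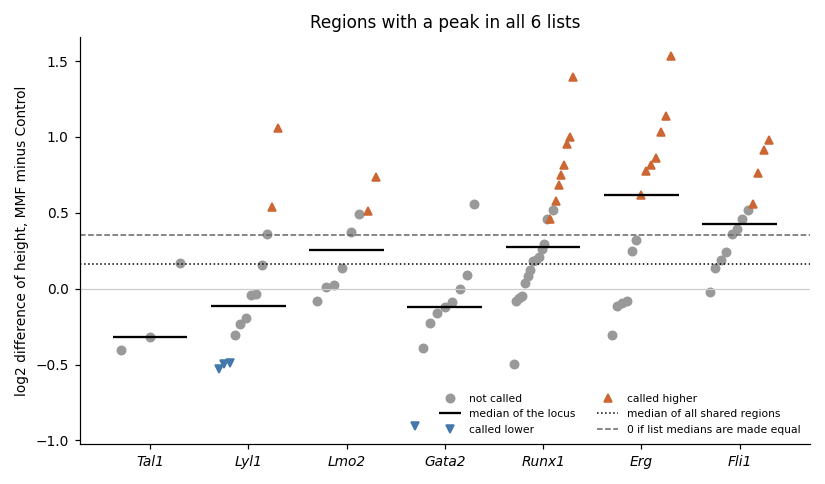
Each point is a shared region of a heptad locus, grouped by gene on the x axis, with the log2 difference of height (MMF minus Control, n = 3 samples each) on the y axis. Triangles are regions called by limma, black bars are locus medians, and the dotted and dashed lines mark the median of all shared regions (0.17) and the point taken as 0 when sample medians are made equal (0.35). Erg (median 0.62) and Fli1 (0.43) lie mostly above the lines, and Tal1 (−0.32), Gata2 (−0.12) and Lyl1 (−0.12) mostly below them.

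The 7 loci fell in an order. The median log2 difference of the shared regions was 0.62 at Erg, 0.43 at Fli1, 0.28 at Runx1, 0.25 at Lmo2, −0.12 at Lyl1, −0.12 at Gata2 and −0.32 at Tal1, and it was 0.19 over all 79, close to the 0.17 over all shared regions of the genome. Above that genome-wide value lay 9 of 13 regions at Erg, 10 of 12 at Fli1, 15 of 22 at Runx1 and 4 of 8 at Lmo2, but 3 of 12 at Lyl1, 1 of 9 at Gata2 and 1 of 3 at Tal1. Heights differ between loci as well: the median height of the shared regions was 71.6 at Lyl1, and all regions above 70 had a median difference of −0.09. The median heights at Tal1 (32.9), Erg (34.7), Runx1 (36.7), Fli1 (41.5) and Lmo2 (42.4) lay between 30 and 45. All regions at those heights had a median difference of 0.30. That is above the medians of Runx1, Lmo2 and Tal1 and below those of Erg and Fli1. The order is a description, since regions of a locus are not independent replicates and the difference between loci was not tested. The regions were also split by position. The 29 shared regions inside a heptad gene body had a median of 0.29 with 11 called higher and 0 lower, and the 34 in the flanks 0.28 with 11 higher and 2 lower. For the 10 over their own promoters the median was −0.04, with 1 call each way. The 6 over promoters of other genes had a median of −0.12. This split was made for the heptad regions only, so the calls by position have no background share beside them.

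**Figure D2:**
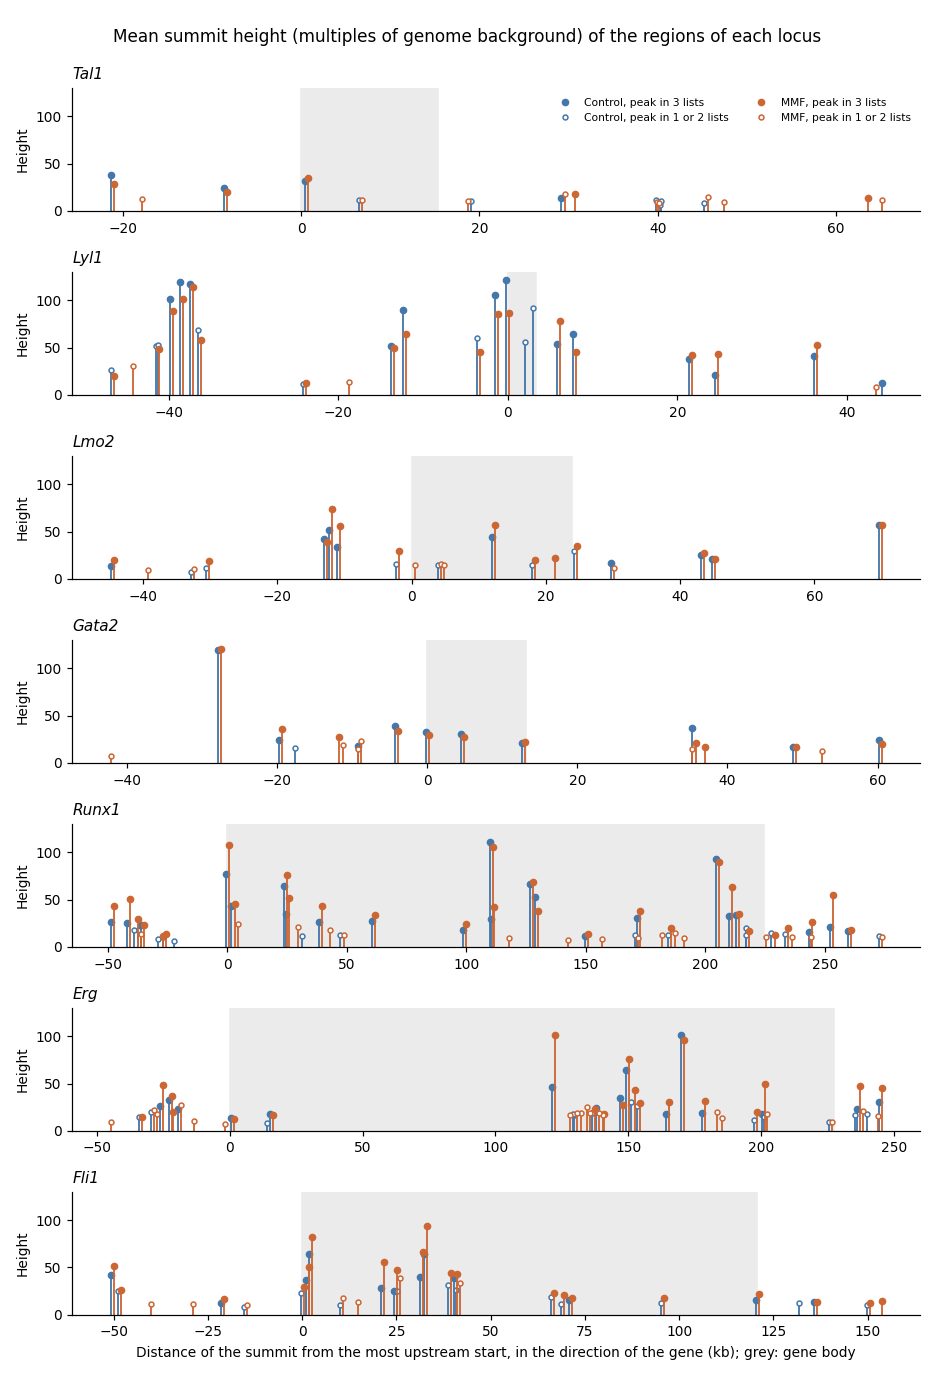
Mean summit height (y axis, multiples of background) of every region of the 7 loci against the distance of its summit from the most upstream start (x axis, kb), for Control (blue) and MMF (orange), with the gene body in grey. Filled points have a peak in all 3 lists of the group and open points in 1 or 2. The tall MMF stems at Erg +121.8 kb and +201.0 kb, Runx1 +252.8 kb and Fli1 +21.2 kb stand over lower Control stems, while the stems of Gata2 −27.6 kb and Runx1 +110.5 kb are close.

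Erg, an ETS factor needed for stem cell maintenance, held the region called at the smallest p. The Erg +121.8 kb region (chromosome 16, 95464329 to 95464999) lies in an intron, 5.41 kb upstream of the nearest inner start of the gene. Its height was 49.4, 43.4 and 45.1 in Control and 115, 96.3 and 93.1 in MMF. Every MMF sample was far above every Control sample, a 2.20-fold difference (log2 1.14 ± 0.16, SE, adjusted p = 3.92e-08). It was also 1 of the 2 heptad regions called higher by rank (adjusted p = 0.0404).

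At Erg +201.0 kb (chromosome 16, 95385316 to 95385987), another intronic region, the height was 15.1, 14.5 and 22.6 in Control and 53.9, 53.8 and 41.4 in MMF. This was the largest change of the 79 regions, 2.90-fold (log2 1.54 ± 0.24, SE, adjusted p = 9.14e-07). It rests on 10 to 14 summit reads in the Control samples and 28 to 49 in MMF. The exact 95% Poisson interval, which covers counting error only, was 4.80 to 18.4 for the lowest of these counts and 36.3 to 64.8 for the highest. These counts are the extremes, so the intervals do not show that the groups are separate beyond counting error. For the counts nearest each other, 14 in Control and 28 in MMF, intervals were not compared. By rank it did not pass the threshold (adjusted p = 0.0503). The Erg +236.6 kb region, beyond the 3′ end of Erg in an intron of Gm31641, rose from 22.9 ± 1.88 to 47.2 ± 8.58 (SD, n = 3 each, adjusted p = 0.000314), and was not called by log2 fold enrichment (adjusted p = 0.0782) or by rank (adjusted p = 0.351).

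The other 4 higher calls at Erg (+244.9, +178.4, +164.9 and −25.6 kb) were not made after centring (adjusted p = 0.365, 0.198, 0.174 and 0.0624). The most accessible Erg region, Erg +170.5 kb, had a height of 97.4, 94.0 and 113 in Control and 88.0, 92.1 and 108 in MMF, and the groups overlapped (log2 −0.08 ± 0.14, SE, adjusted p = 0.714). Erg +147.4 kb was 34.2 ± 1.95 in Control and 27.8 ± 3.82 in MMF (SD, n = 3 each, adjusted p = 0.357), and was the region called lower by rank (adjusted p = 0.0486). The most upstream Erg promoter was weak in both groups, with a height of 13.8 ± 2.54 in Control and 12.6 ± 0.70 in MMF (adjusted p = 0.820). An inner promoter, at +127.4 kb, had a peak in only 1 MMF list. Peaks present in all 3 MMF lists and no Control list, called gained, were found at Erg +140.5 kb (17.6 ± 2.73) and Erg −21.8 kb (19.7 ± 5.42, SD, n = 3 MMF samples).

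Fli1, the other ETS factor of the heptad, changed along a stretch inside its gene body. At Fli1 +21.2 kb (chromosome 9, 32520218 to 32521707) the height was 37.0, 24.6 and 24.2 in Control and 46.2, 65.2 and 56.2 in MMF, a 1.97-fold difference (log2 0.98 ± 0.21, SE, adjusted p = 0.000234). All MMF values were above all Control values. Fli1 +24.8 kb (chromosome 9, 32516420 to 32517002), which also overlaps the noncoding gene Gm27201, rose from 25.6 ± 6.11 to 47.5 ± 0.84 (SD, n = 3 each, adjusted p = 0.00106). Both were called under all 3 scalings of the height, but neither by log2 fold enrichment (differences of 0.44 and 0.49, adjusted p = 0.220 and 0.0924) nor by rank (adjusted p = 0.639 and 0.314). Next to them, Fli1 +31.6 kb rose from 39.8 ± 8.38 to 66.8 ± 2.88 (adjusted p = 0.000876) and the most accessible region of the locus, Fli1 +32.7 kb, from 63.8 ± 2.19 to 94.1 ± 3.02 (SD, n = 3 each, adjusted p = 0.00252), but these were not called after centring (adjusted p = 0.0704 and 0.277).

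At the start of Fli1 the values depended on how the promoter was drawn. The shared region over the promoter had its summit 1.37 kb inside the gene and a height of 41.2, 34.7 and 33.9 in Control and 48.4, 55.2 and 47.3 in MMF, with no overlap (log2 0.46 ± 0.20, SE, adjusted p = 0.0764). When only peaks within 1000 bp of the start were taken, the MMF values became 28.6, 55.2 and 37.0 and the groups overlapped (exact permutation test, two-sided, p = 0.8). The regions nearest the distances of known Fli1 elements, at −15 and +10.4 kb, each had a peak in 1 Control and 2 MMF lists. A gained peak lay at Fli1 +153.3 kb in an intron of Kcnj1 (14.9 ± 3.49, SD, n = 3 MMF samples).

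Runx1, the DNA-binding subunit of core binding factor, had the most calls and also the most shared regions. Its share called higher was 36.4%, below the 53.8% of Erg and beside 21.8% of all shared regions. Runx1 +252.8 kb (chromosome 16, 92573021 to 92573714) lies between genes, beyond the 3′ end of the 225 kb gene body. Its height was 20.6, 21.7 and 19.3 in Control and 63.8, 52.4 and 47.3 in MMF, a 2.64-fold difference (log2 1.40 ± 0.22, SE, adjusted p = 1.24e-06). Both groups were tight and far apart, and this was the other heptad region called higher by rank (adjusted p = 0.0435). Runx1 +210.6 kb (chromosome 16, 92615182 to 92615721), in an intron, rose from 32.3 ± 2.14 to 63.1 ± 10.6 (SD, n = 3 each, adjusted p = 9.96e-05). Upstream, Runx1 −41.3 kb, in an intron of the noncoding gene Gm49723, rose from 25.3 ± 6.02 to 50.4 ± 10.5 (SD, n = 3 each, adjusted p = 0.000402).

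Runx1 also held strong regions without a called difference. The highest, Runx1 +110.5 kb in an intron, had a height of 111 ± 7.85 in Control and 106 ± 16.2 in MMF (SD, n = 3 each, adjusted p = 0.716). An intronic Runx1 enhancer of stem cells is named for lying 23 kb downstream of the distal start, and the region nearest that distance, at +24.3 kb, had a height of 78.2, 66.5 and 48.4 in Control and 77.0, 76.5 and 73.9 in MMF. The groups overlapped (log2 0.26 ± 0.16, SE, adjusted p = 0.241). Distance is the only basis of that match. The adjoining region at +25.1 kb was steady within groups and higher with MMF, 34.8 ± 1.22 against 51.9 ± 0.40 (SD, n = 3 each, adjusted p = 0.0220), though not after centring (adjusted p = 0.389).

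The promoters of Runx1 differed in sign, and one of them was called. The distal promoter had a height of 81.0, 78.1 and 72.6 in Control and 96.8, 92.1 and 135 in MMF, with no overlap (1.38-fold, log2 0.46 ± 0.14, SE, adjusted p = 0.0107, and 0.587 after centring). One of the regions over the proximal promoter, at +129.4 kb, had a height of 45.3, 53.5 and 58.0 in Control and 46.2, 36.8 and 29.6 in MMF, which overlapped (log2 −0.49 ± 0.20, SE, adjusted p = 0.0579). It was called lower after centring (adjusted p = 0.000549). The neighbouring region at +127.3 kb was close between groups, at 66.6 ± 5.04 and 68.2 ± 2.39 (SD, n = 3 each, adjusted p = 0.895). A gained peak lay at −27.6 kb (11.3 ± 5.27, SD, n = 3 MMF samples). The difference between the distal and the proximal promoter was not itself tested.

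Lyl1, the relative of Tal1, was the locus with the most regions called lower. At the Lyl1 start (chromosome 8, 84701224 to 84701866) the height was 130, 111 and 124 in Control and 80.3, 82.2 and 99.0 in MMF. No MMF sample reached the lowest Control sample, and the fold was 0.713 (log2 −0.49 ± 0.13, SE, adjusted p = 0.00340). The difference was not called by rank (adjusted p = 0.242) or by log2 fold enrichment, where it was −0.07 (adjusted p = 0.858). A lower call was also made for Lyl1 +7.9 kb, in an intron of Nfix, which fell from 64.6 ± 11.7 to 45.5 ± 4.97 (SD, n = 3 each, adjusted p = 0.0311). The third lay over the promoter of Trmt1, a tRNA methyltransferase gene, 12.2 kb upstream of Lyl1, with heights of 90.1 ± 4.64 and 63.9 ± 16.7 (SD, n = 3 each, adjusted p = 0.00813). Neither of these was called by rank (adjusted p = 0.121 and 0.147) or by log2 fold enrichment (adjusted p = 0.331 and 0.329).

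The window of Lyl1 reaches far into Nfix, a nuclear factor I gene on the other strand, and calls in both directions were made there. The lower-called regions at the Lyl1 start and at +7.9 kb lie in introns of Nfix. Lyl1 +24.6 kb (chromosome 8, 84725792 to 84726219), in an intron of Nfix, had a height of 23.3, 18.8 and 21.0 in Control and 37.4, 46.7 and 47.3 in MMF, a 2.08-fold difference (log2 1.06 ± 0.24, SE, adjusted p = 0.000348). Its groups were well apart. Lyl1 +5.97 kb, in an exon of Nfix, was also called higher (adjusted p = 0.01003). Its height was 45.3, 63.6 and 53.2 in Control and 74.8, 90.7 and 69.5 in MMF, without overlap. That region was also called by log2 fold enrichment (adjusted p = 0.00860), but not after centring (adjusted p = 0.395) or by rank (adjusted p = 0.0722). The most accessible region of the window that overlaps no other coding promoter, 37.4 kb upstream of Lyl1, was close between groups (117 ± 9.33 and 114 ± 4.04, SD, n = 3 each, adjusted p = 0.868). The only heptad region present in all Control lists and no MMF list, called lost, was also in Nfix, at Lyl1 +44.3 kb, and was weak (12.8 ± 0.36, SD, n = 3 Control samples).

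Tal1, a master regulator of blood formation, had few peaks. Its shared promoter region, with the summit 0.58 kb inside the gene, had a height of 31.6, 33.3 and 29.0 in Control and 31.9, 35.4 and 38.4 in MMF, and the groups overlapped (log2 0.17 ± 0.22, SE, adjusted p = 0.629). Around the distances of the known Tal1 enhancers at +19 and +40 kb there were 2 and 4 regions, each with a peak in at most 2 lists and a height of at most 11.3. The other shared regions were at heights of 37.6 ± 7.58 in Control and 28.3 ± 3.69 in MMF (−21.1 kb, in an intron of Stil, adjusted p = 0.204) and 23.8 ± 5.63 and 19.7 ± 6.81 (−8.4 kb, SD, n = 3 each, adjusted p = 0.444). Gained peaks lay at +30.5 kb (18.4 ± 1.98) and, in an intron of Cyp4x1, at +63.4 kb (13.2 ± 4.76, SD, n = 3 MMF samples).

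Lmo2, the LIM-domain bridge of the complex, had regions called higher by the unshifted height in a cluster about 12 kb upstream of its first start. That is the distance of a known Lmo2 blood enhancer. Distance is the only basis of that match. Counted from an inner start, the same regions lie near the distance of another known element, at −25 kb. The Lmo2 −12.01 kb region, the most accessible of the locus, had a height of 50.8, 49.2 and 56.4 in Control and 73.7, 72.2 and 76.9 in MMF (1.43-fold, log2 0.51 ± 0.16, SE, adjusted p = 0.0141). At −10.9 kb the height was 35.7, 37.6 and 27.4 in Control and 50.6, 56.7 and 59.1 in MMF (1.66-fold, log2 0.73 ± 0.20, SE, adjusted p = 0.00341). Neither pair of groups overlapped. The third region of the cluster, at −12.9 kb, had overlapping groups, at 41.7 ± 9.07 and 38.8 ± 2.08 (SD, n = 3 each, adjusted p = 0.813). After centring neither call held (adjusted p = 0.472 and 0.128). With the median difference set to 0, only the region at −10.9 kb was called (adjusted p = 0.0273). Neither was called by log2 fold enrichment (adjusted p = 0.306 and 0.139) or by rank (adjusted p = 0.972 and 0.516).

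Lmo2 has several starts, and its strongest promoter region lay over an inner one, 12.2 kb downstream of the first. There the height was 41.2, 43.4 and 48.4 in Control and 55.0, 59.5 and 57.7 in MMF, without overlap (log2 0.38 ± 0.18, SE, adjusted p = 0.124). The region at the first start had a peak in only 2 MMF lists. A gained peak lay at +21.2 kb (21.7 ± 3.24, SD, n = 3 MMF samples).

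Gata2, the GATA factor of stem and progenitor cells, had a difference near 0 at its strongest region. Gata2 −27.6 kb (chromosome 6, 88165675 to 88166445), between genes, had a height of 114, 121 and 124 in Control and 130, 108 and 123 in MMF, with a fitted log2 difference of −0.001 ± 0.12 (SE, adjusted p = 0.997). It was called lower after centring (adjusted p = 0.0177). The region over the distal start had a height of 32.2 ± 2.91 in Control and 29.6 ± 2.99 in MMF, and that over the inner start 30.3 ± 5.33 and 26.9 ± 2.32 (SD, n = 3 each, adjusted p = 0.752 and 0.681). At −4.0 kb, near the distance of known upstream Gata2 switch sites, the heights were 38.7 ± 4.11 and 33.3 ± 5.51 (SD, n = 3 each, adjusted p = 0.495). The region matched to the intronic +9.5 element was matched by distance alone. Its summit lies in an exon, 8.40 kb from the inner start, so it may not be that element. Its height was 20.6 ± 1.61 in Control and 22.0 ± 3.07 in MMF (SD, n = 3 each, adjusted p = 0.846).

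The largest fall of the 79 regions was 35.5 kb downstream of the distal Gata2 start (chromosome 6, 88229093 to 88229581), in an intron of Dnajb8, a heat shock protein family gene. Its height was 48.0, 31.8 and 32.2 in Control and 30.8, 18.4 and 13.3 in MMF. The highest MMF value was just under the lowest Control value, and the fold was 0.535 (log2 −0.90 ± 0.26, SE, adjusted p = 0.00612). It rests on 9 to 28 summit reads in MMF. Just beside it, +36.8 kb was gained (16.4 ± 2.55), as was Gata2 −11.9 kb (27.6 ± 5.30, SD, n = 3 MMF samples), the highest of the gained heptad peaks.

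**Figure D3:**
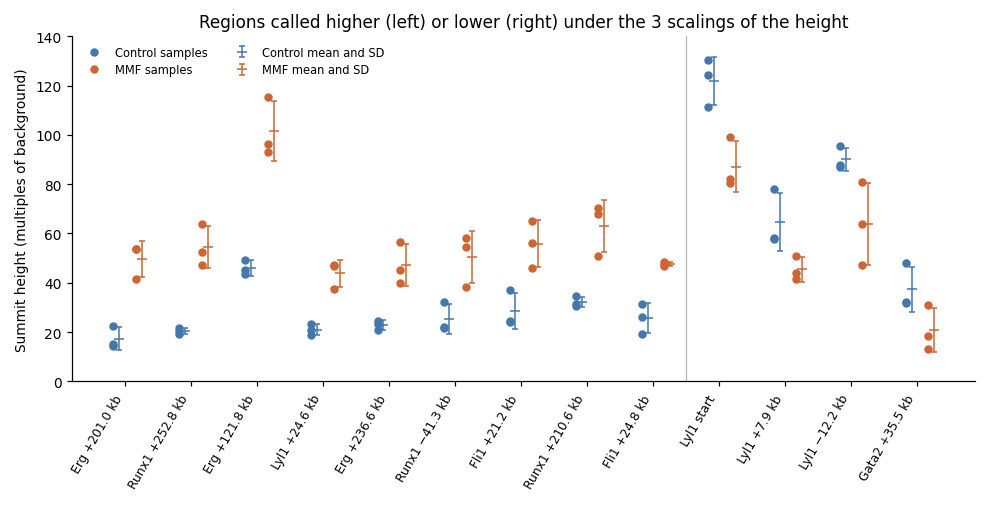
Summit height (y axis, multiples of background) in each sample of the 13 regions called under the 3 scalings of the height, with the group mean and SD (n = 3) beside the points, Control in blue and MMF in orange. The groups do not overlap in any of the 13, which were called on these same heights. The 9 regions called higher are at 14.5 to 49.4 in Control and 37.4 to 115 in MMF.

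Considering only promoters, the heptad genes were mixed. By the highest peak within 1000 bp of a start, all 7 had a promoter peak in every list. Lmo2 and Runx1 were higher and Lyl1 was lower in all 3 MMF samples than in any Control sample (p = 0.1 for each by an exact two-sided permutation test, the smallest p that 3 against 3 allow). Over 11687 promoters of coding genes with a peak in every list, 6.19% were higher and 17.8% lower without overlap, and the median log2 difference was −0.10, against 0.09 over the 7. The promoters of Tal1 (p = 0.2), Gata2 (p = 0.4), Erg (p = 1) and Fli1 (p = 0.8) had overlapping groups by the same exact test.

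Promoters of other genes of the same circuit were compared in the same way. Of 9 partner genes (such as Ldb1, the adaptor that Lmo2 binds, the E protein genes Tcf3, Tcf12 and Tcf4, and Cbfb, the partner of Runx1), 8 had a promoter peak in all lists, and none was free of overlap (median log2 difference −0.13). The ninth, Cbfa2t3, a corepressor gene, had a height of 45.3, 36.2 and 38.7 in Control and of 22.0 and 25.5 in the MMF lists that held its peak, with no peak in the other. Of 11 relatives of the heptad genes (such as Gata3, Lmo4, Runx2, Runx3 and Ets1), 9 had a peak in all lists and none was free of overlap (median 0.02), and Gata1, the erythroid GATA factor, had a promoter peak in no list. Of 13 other stem and progenitor genes, 10 had a peak in all lists. In this group Meis1, a HOX cofactor gene and MLL-AF9 target, was lower without overlap, at 113, 114 and 85.5 in Control and 78.1, 79.3 and 76.9 in MMF (p = 0.1, exact permutation test), and the median was −0.16.

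**Figure D4:**
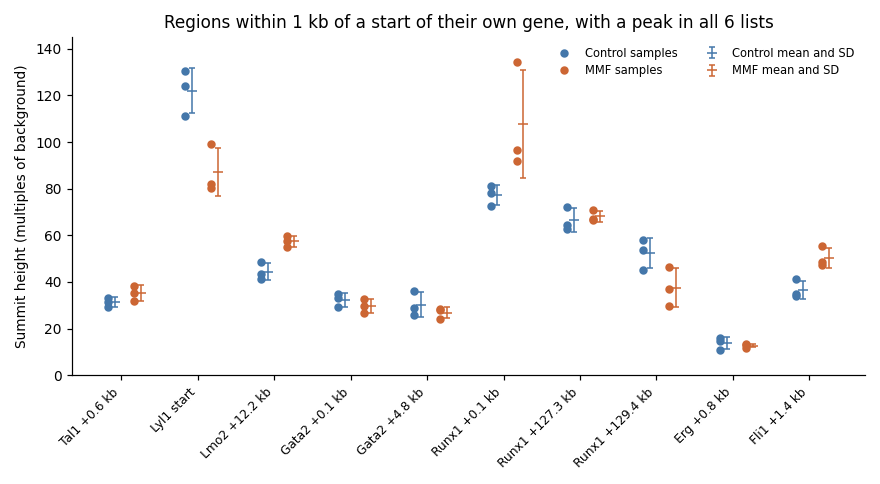
Summit height (y axis, multiples of background) in each sample of the 10 shared regions that reach within 1 kb of a start of their own heptad gene (x axis, distance of the summit from the most upstream start), with the mean and SD (n = 3), Control in blue and MMF in orange. Lyl1 is lower in every MMF sample, Runx1 at its distal start, Lmo2 and Fli1 are higher in every MMF sample, and the groups overlap at the others.

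By presence of peaks, more heptad regions appeared than disappeared with MMF, in lists that were longer throughout. Of the 198 regions, 9 (4.55%) were gained and 1 was lost, beside 6.0% and 0.182% of all regions. With each list cut to its 58496 peaks of smallest p, the length of the shortest, 2 were gained and 4 lost, beside 2.35% and 1.37%. The windows held 122, 121 and 121 peaks in the Control lists and 161, 151 and 150 in the MMF lists, a ratio of 1.27 (exact permutation test, two-sided, p = 0.1). As a share of the list this was 0.198% ± 0.008 in Control and 0.182% ± 0.006 in MMF (SD, n = 3 each, p = 0.1 by the same exact test). Among the 79 shared regions, 28 were higher and 8 lower in all MMF samples than in any Control sample, beside 29.1% and 7.68% of all shared regions. Of the called regions, 22 of the 23 higher and all 4 lower were free of overlap, the exception being Runx1 +244.2 kb. The calls were made on the same heights, so this adds no support to them. The share free of overlap among all called regions was not counted. The genes whose promoter heights followed the mean heptad promoter profile most closely over the 6 lists were Ero1l (Pearson r 0.984), Emc4 (0.980), Arpc1b (0.980), Synm (0.974) and Csnk1g3 (0.973) among 11680 compared. This is a description over 6 lists that share their depth and scaling within a list. Among so many genes, correlations this high over 6 values can arise without any likeness. The profile also averages promoters that moved in opposite directions, such as Lyl1 (lower) and Runx1 (higher).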

How the data were processed

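ATAC-seq was performed on 3 Control and 3 MMF-treated samples, grouped by their treatment label. Per the labels and methods, the authors checked and trimmed reads with FastQC and Trim Galore, aligned them to mm10 (Bowtie2) and ran MACS2 for each sample by itself. In the deposited lists the fold enrichment is a ratio of summit reads to local background, and p and q are −log10 values computed by the authors.

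Peaks outside chromosomes 1 to 19, X and Y were left out. Summit reads and background were solved from fold enrichment and p, with whole reads (within 0.05) for at least 99.998% of peaks. Height was reads over the lowest background of the list. Peaks were merged over the 6 lists, and an overlap of 1 bp counted as presence. The test on shared regions was limma (version 3.58.1, R 4.3.3, lmFit and eBayes with trend) on log2 height, without a block, with Benjamini-Hochberg adjustment. The lists give called peaks only, so a region without a peak has no value, not a value of 0. Single values used exact permutation tests over samples. Python 3.11.15, scipy 1.17.1, pandas 2.3.3 and pysam 0.24.0 were used, and the steps were tested on simulated data. The differential analysis of reads with PePr was not repeated here.

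The heptad genes, the gene lists and the named regions were chosen with earlier results of these data known. Named were promoter regions, the highest region of each gene that overlaps no promoter of another coding gene, called regions (at most 10 of smallest p in a direction), gained and lost regions, and regions within 2 kb of the nominal distance of a known element from any start, together with a few neighbours and called regions chosen after their values were seen. Alternatives covered list length, a stricter q, overlap, fixed windows, scaling, rank, fold enrichment, lists required, the replicate number as a block and each sample left out. No pairing by replicate number was seen in the deviations of the samples.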

Additional observations from a re-analysis of the deposited data

How the results depend on the processing

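Scaling and list length moved the counts most. The number of heptad regions called higher was 23 as reported, 9 when samples were centred on their medians, 13 with the median difference set to 0 (chosen after seeing the data), 9 by log2 fold enrichment and 2 by rank. The number called lower was 4 as reported, and 17, 8, 1 and 1 in the same order. The median log2 difference of the shared heptad regions was 0.19 as reported, −0.16 after centring, 0.026 with the median difference set to 0 and, in normal scores, −0.055 by rank. At equal list length 2 regions were gained and 4 lost, and the mean number of peaks in the windows was 6 lower in MMF (−6) where it had been 32.7 higher. Requiring a peak over at least 0.5 of a region left 41 shared heptad regions to test, of which 12 were called higher, and 2 were lost. With samples left out in turn, gained regions ranged from 9 to 15 and lost ones from 1 to 3, where fewer lists need to agree. Calls ranged from 15 to 23 higher and 1 to 4 lower: without MMF replicate 2 there were 15 higher, and without MMF replicate 3 there was 1 lower. Gained regions numbered 15 without Control replicate 1, MMF replicate 2 or MMF replicate 3 and 14 without Control replicate 2, and lost regions 3 without Control replicate 1 or MMF replicate 1 and 2 without MMF replicate 3.
Among promoters, Tal1 reversed after centring (log2 −0.18). Erg reversed after centring (−0.33), by rank (−3.23 percentile points), by log2 fold enrichment (−0.020) and with the median difference set to 0 (−0.14), and ranged from −0.13 to 0.14 with samples left out. Fli1 reversed under the same settings (−0.26, −3.0 percentile points, −0.051 and −0.075), and ranged from −0.16 to 0.31. The cause was not tested. In sign only, Lyl1 and Gata2 stayed lower and Lmo2 and Runx1 higher under every alternative tried for the promoters. Some of these differences were small, at −0.069 for Lyl1 by log2 fold enrichment and −0.040 for Gata2 without Control replicate 2. After centring, Lmo2 was at 0.021 and Runx1 at 0.11. The groups overlapped at the Gata2 promoter as reported. The promoters of Erg and Fli1 lacked a peak in some list at equal list length and gave no value there. A stricter q, fixed windows and fewer lists required changed no count by over 1.5 times. The replicate number as a block gave 23 higher and 4 lower. Deviations of samples with the same number correlated at −0.001, 0.004 and −0.003, and not every sample correlated best with its own number. No pairing was seen, but this cannot show whether samples with the same number shared a culture or mouse. Regions with few summit reads limit what can be seen: a region called in no list may be open below the peak threshold.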
